A study of Mus musculus with 39 samples.

Results

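Androgen-dependent Sertoli genes were followed in mouse testis as 6 listed members, Rhox5, Rhox8, Eppin, Drd4, Cldn3 and Tsx. The members were taken by name, each from the probe set annotated with that symbol alone, and are 6 of the 22180 genes with such a probe set. Each had 1 such probe set, and all 6 passed the filter on dim signals, as did 19007 genes in all (the mean of at least 1 group had to exceed the 25th percentile of all values).

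RNA of whole testes was measured on 39 Affymetrix arrays, labelled as biological replicates with no pooling named. At 2 weeks and again at 2 months there were 3 knockout lines and wild-type littermates (WT, 8 arrays per age, whose own alleles the labels do not name). The prKO line carried Sf1:Cre with Prkar1a fl/fl (4 arrays at 2 weeks, 3 at 2 months), the srKO line Amh:Cre with Prkar1a fl/fl (4 arrays per age) and the lrKO line Cyp11a1:Cre with Prkar1a fl/fl (4 arrays per age). In the testis, Sf1 is expressed in steroidogenic cells and in Sertoli cells, Amh in Sertoli cells and Cyp11a1 in steroidogenic cells, so the promoters that drive Cre differ in the cells they are known for.

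Sertoli cells are the somatic cells of the seminiferous tubule that carry the developing germ cells. Testosterone from the Leydig cells acts on them directly, and follicle-stimulating hormone (FSH) acts on them through cAMP and protein kinase A. Prkar1a encodes a regulatory subunit that holds protein kinase A inactive until cAMP binds, and several of the members are known as genes whose testicular level depends on androgen action in Sertoli cells.

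Values are log2 intensities. A gene was called changed when its adjusted p, from limma and corrected for all 19007 genes by the Benjamini-Hochberg method, was under 0.05. Prkar1a averaged 8.21 ± 0.13 (SD, n = 4) in prKO testes and 8.50 ± 0.12 (SD, n = 4) in srKO testes at 2 weeks, against 8.98 ± 0.12 (SD, n = 8) in WT testes, and both differences were called (log2 difference -0.78, adjusted p = 4.52e-07, and -0.48, adjusted p = 0.00219). At 2 months Prkar1a was lower in prKO testes (-0.30, adjusted p = 0.00782) but higher than WT in the arrays labelled srKO (0.24, adjusted p = 0.0302). The size of the srKO difference depends on the WT arrays used. The srKO mean was 9.08, against 8.72 in WT replicates 1 to 4 and 8.97 in WT replicates 5 to 8. In the arrays labelled lrKO Prkar1a differed from WT by 0.05 at 2 weeks and 0.04 at 2 months (adjusted p = 0.839 and 0.945). RNA of whole testis cannot show whether the gene was deleted in steroidogenic cells alone. Whether the Prkar1a probe set covers the deleted part was not tested. One extraction note in the labels names adrenal glands, whereas the tissue label is whole testis. All 20 listed Sertoli cell markers were above the filter, and their mean level per array lay between 9.22 and 9.58 over the 4 groups at 2 weeks and between 7.91 and 8.70 over those at 2 months. In whole testis, fewer cells of a type and less RNA per cell cannot be told apart.

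Some arrays stood apart. Adam7, an epididymal gene, reached 11.70 in prKO replicate 1 at 2 months, whereas it lay between 4.19 and 7.09 on the other 38 arrays. A further 5 arrays exceeded the median of their age by more than 1 log2 unit (prKO replicate 3 at 2 weeks, and srKO replicate 1, lrKO replicate 4 and WT replicates 4 and 7 at 2 months). WT replicate 4 at 2 weeks had the highest level of all 6 myoid and smooth muscle markers in its group, with a mean of 10.31 against 8.33 to 8.80 in the other 7. WT replicates 1 to 4 and 5 to 8 also differed from each other in some genes, and the values this touches are given beside the results.

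The sequences around RefSeq start sites of Rhox5, Eppin and Drd4 are shown because Rhox5 and Eppin were called lower and Drd4 higher in the arrays labelled srKO at 2 months. Eppin was not called in prKO testes. These 3 were thus picked by their values, and whether motifs go with the direction of change was not tested. Each runs from 250 bases before the start to 50 bases after it on the gene's own strand (RefSeq, build GRCm38.p6). The start base is the outer boundary of the annotated gene for Rhox5, Eppin and Cldn3, but lies 44 bases inside it for Drd4 and 5455 bases inside it for Tsx. Capitals mark the half-site of the androgen response element, AGAACA or TGTTCT.
Rhox5 (chrX:37754358-37754657, + strand): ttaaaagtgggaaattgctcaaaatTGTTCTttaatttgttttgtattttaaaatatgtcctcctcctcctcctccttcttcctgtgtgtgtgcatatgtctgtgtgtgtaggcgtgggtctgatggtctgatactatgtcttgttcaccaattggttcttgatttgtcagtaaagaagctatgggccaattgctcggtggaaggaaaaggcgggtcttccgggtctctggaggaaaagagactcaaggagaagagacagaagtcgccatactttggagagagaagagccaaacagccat
Eppin (chr2:164593522-164593821, - strand): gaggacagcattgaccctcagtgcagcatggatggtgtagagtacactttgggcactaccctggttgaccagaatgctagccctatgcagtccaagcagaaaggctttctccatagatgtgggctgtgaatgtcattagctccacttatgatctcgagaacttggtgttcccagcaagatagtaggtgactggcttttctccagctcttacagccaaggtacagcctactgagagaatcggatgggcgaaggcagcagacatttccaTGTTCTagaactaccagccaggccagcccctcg
Drd4 (chr7:141291768-141292067, + strand): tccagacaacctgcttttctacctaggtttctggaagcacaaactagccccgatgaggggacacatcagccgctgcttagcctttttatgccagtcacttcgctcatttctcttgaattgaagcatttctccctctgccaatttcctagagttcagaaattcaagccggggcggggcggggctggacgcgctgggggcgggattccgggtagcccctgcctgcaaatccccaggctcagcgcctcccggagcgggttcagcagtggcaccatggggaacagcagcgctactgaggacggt
Searched on both strands, the window of Rhox5 held 1 half-site, whose first base lies at -225, and that of Eppin held 1, whose first base lies at 18, counted from the start as base 1. The windows of Drd4, Cldn3 and Tsx held none, and Rhox8 was not searched. Of 32851 such windows of mouse genes, 19% held at least 1 half-site. None of the 5 windows searched held the full element (AGAACA, any 3 bases, TGTTCT), found in 0.00913% of windows, or the cAMP response element TGACGTCA, found in 1.79%. Its half-site, TGACG or CGTCA, was found in 20.8% of windows and, among the 5, in that of Cldn3 alone, where its first base lies at -91. Rhox5 is known to have a distal and a proximal promoter, of which the proximal is the androgen-responsive one in Sertoli cells, and the window was taken at the annotated gene start only.

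At 2 months, 4 of the 6 members differed from WT in prKO testes (3 higher and 1 lower) and 4 in the arrays labelled srKO (2 higher and 2 lower). Over all genes tested, 48.4% were called in the prKO comparison and 25.4% in the srKO comparison. In the arrays labelled lrKO no member was called, against 0.184% of all genes, and none had an unadjusted p under 0.05. Rhox5 was called lower and Rhox8 and Drd4 higher in both prKO and srKO arrays, comparisons that share the same 8 WT arrays.

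At 2 weeks, 2 members were called higher in prKO testes, where 10.5% of all genes were called. No member was called in srKO testes, where 0.873% of genes (166) were called, although 3 had an unadjusted p under 0.05. With WT replicates 1 to 4 that number of genes was 875, with WT replicates 5 to 8 it was 92, in a fit of only the 2 groups 39 and with array weights 2234. One member, Rhox5, was called higher in the arrays labelled lrKO, where 0.100% of genes (19 in all) were called. With WT replicates 1 to 4 as controls 942 genes were called there, with the other 4 WT arrays 22, and in a fit of only the 2 groups 3.

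**Figure D1:**
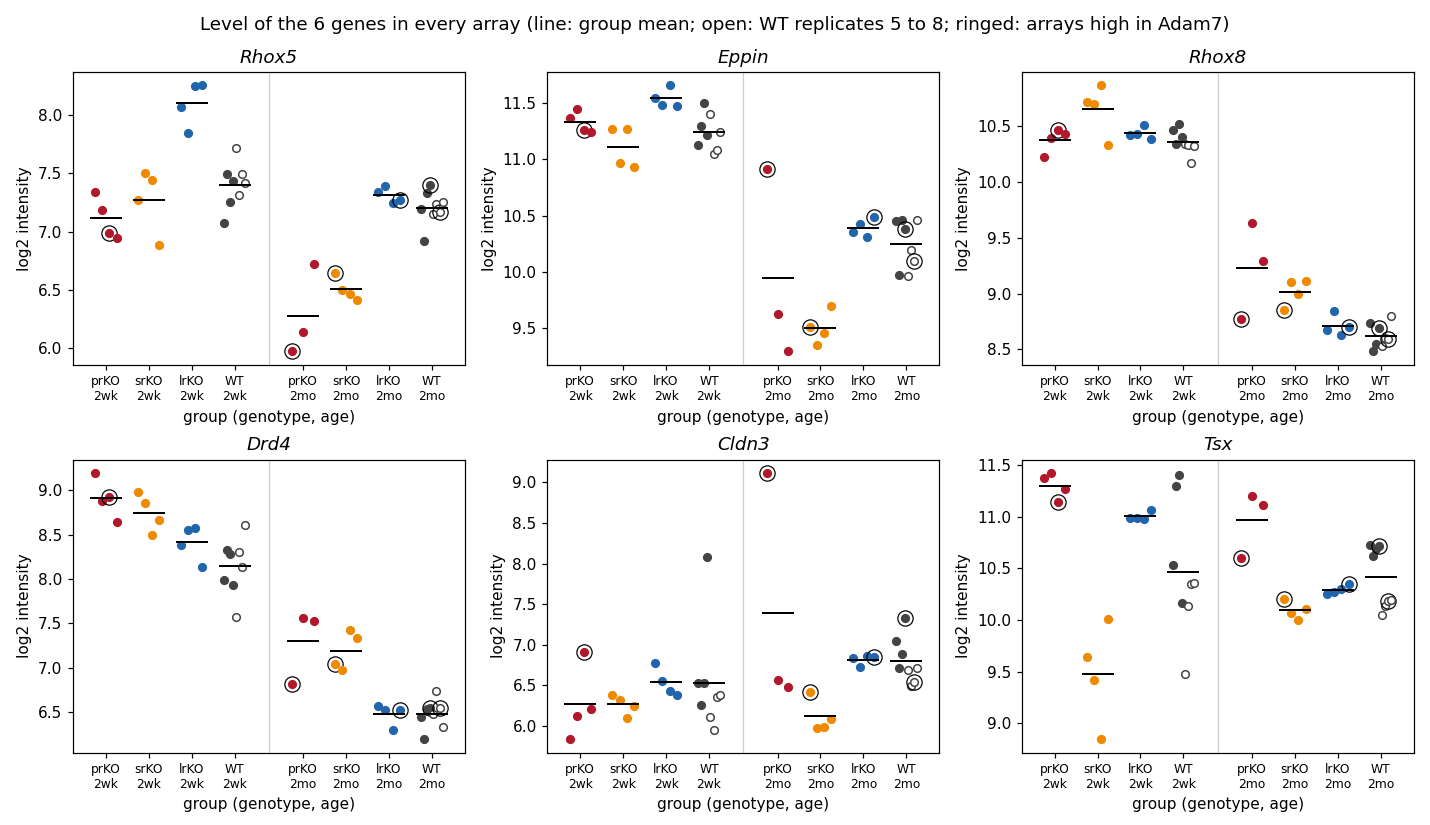
Log2 intensity (vertical axis) of the 6 genes in each of the 39 arrays, by genotype and age (horizontal axis), with 1 point per array, a line at each group mean, open points for WT replicates 5 to 8 and rings around arrays high in Adam7. At 2 months the prKO and srKO points of Rhox5 lie below all 8 WT points, and those of Drd4 lie above all of them.

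Rhox5 is an X-linked homeobox gene (chrX:37754608-37808878) and the classic androgen-regulated gene of Sertoli cells. At 2 months it read 5.97, 6.14 and 6.72 in prKO testes. The arrays labelled srKO read 6.64, 6.50, 6.47 and 6.41, and those labelled lrKO 7.34, 7.40, 7.25 and 7.27. WT testes ran from 6.92 over a median of 7.21 to 7.40. All 3 prKO and all 4 srKO values thus lay below the lowest WT value, and the lrKO values lay within the WT range. Rhox5 was 1.91-fold lower in prKO testes (log2 difference -0.93, SE 0.12, adjusted p = 3.04e-06) and 1.63-fold lower in the arrays labelled srKO (-0.70, SE 0.11, adjusted p = 6.27e-05). The lrKO difference was 0.11, with a 95% interval from -0.12 to 0.33 (adjusted p = 0.856). Without prKO replicate 1, the array rich in Adam7, the prKO difference was -0.78 (adjusted p = 3.53e-05).

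The youngest testes differed from this pattern. At 2 weeks Rhox5 read 7.34, 7.19, 6.99 and 6.94 in prKO testes and 7.27, 7.51, 7.44 and 6.88 in srKO testes. The arrays labelled lrKO read 8.07, 7.84, 8.25 and 8.26, and The 8 WT values ran from 7.08 over a median of 7.43 to 7.72. All 4 lrKO values lay above every WT value, while both other lines overlapped WT. Rhox5 was 1.63-fold higher in the arrays labelled lrKO (0.71, SE 0.12, adjusted p = 0.0310), although Prkar1a did not differ from WT there. That call was lost without WT replicate 3 (adjusted p = 0.0546) and without lrKO replicate 1, 3 or 4 (adjusted p = 0.0870, 0.138 and 0.124), with the value staying between 0.66 and 0.79 whichever single array was left out, and in a fit of the lrKO and WT arrays alone (adjusted p = 0.0559). Against WT replicates 5 to 8 alone it was 0.62 (adjusted p = 0.134). The prKO and srKO differences were -0.29 (adjusted p = 0.143) and -0.12 (adjusted p = 0.690).

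Direct comparison of the lines placed srKO arrays below lrKO arrays in Rhox5 at both ages, by -0.83 (adjusted p = 0.00426) at 2 weeks and -0.81 (adjusted p = 7.00e-05) at 2 months. The change from WT itself moved with age, by -0.65 in prKO testes (adjusted p = 0.00475) and by -0.58 in srKO testes (adjusted p = 0.0132), from the interaction term. The prKO term missed the threshold without the 6 arrays high in Adam7 (-0.51, adjusted p = 0.0617), and the srKO term missed it against WT replicates 5 to 8 alone (-0.49, adjusted p = 0.0859). Across the 8 groups the mean of Rhox5 was highest in lrKO at 2 weeks (8.11), then ran through WT at 2 weeks (7.40), lrKO at 2 months (7.31), srKO at 2 weeks (7.28), WT at 2 months (7.21) and prKO at 2 weeks (7.12), whose ranges overlap from one to the next. A gap then separated srKO (6.50) and prKO (6.28) at 2 months.

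Eppin (chr2:164588343-164593571) encodes a protease inhibitor of the sperm surface, made in Sertoli cells and in the epididymis. At 2 months the arrays labelled srKO read 9.51, 9.34, 9.45 and 9.69, and those labelled lrKO 10.35, 10.43, 10.31 and 10.48. In WT testes the values ran from 9.96 over a median of 10.29 to 10.46. All 4 srKO values lay below every WT value, and Eppin was 1.68-fold lower there (-0.75, SE 0.20, adjusted p = 0.00756); against WT replicates 5 to 8 alone it was -0.68 (adjusted p = 0.0652). In prKO testes the values were 10.91, 9.63 and 9.29. Replicate 1, with Adam7 at 11.70, lay above every WT value, and replicates 2 and 3, with Adam7 at 4.25 and 4.48, lay below every WT value. The prKO difference over all 3 arrays was -0.31 (adjusted p = 0.263), and without replicate 1 it was -0.79 (adjusted p = 1.05e-04).

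Genes beside Eppin were also high in that array. Of the 17 listed WAP and Kunitz domain genes, most of them on chromosome 2 with Eppin, Wfdc15b read 11.06 in prKO replicate 1 against 4.14 and 4.36 in the other 2 prKO arrays, Wfdc16 read 10.91 against 4.36 and 4.37, and Wfdc13 read 11.78 against 5.97 and 6.12. In WT replicate 4 at 2 weeks Wfdc15b read 8.62 against 4.09 to 5.055 in the other WT arrays, and Wfdc16 read 5.21 against 4.13 to 4.70. Wfdc13 lay within their range there. These 3 genes were chosen after their values were seen. The part of epididymal RNA in the level of Eppin was not tested beyond leaving such arrays out.

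At 2 weeks Eppin read 11.37, 11.45, 11.27 and 11.24 in prKO testes, 11.27, 10.97, 11.27 and 10.94 in srKO testes and 11.55, 11.49, 11.66 and 11.48 in the arrays labelled lrKO. WT testes ran from 11.05 over a median of 11.23 to 11.51. Of the lrKO values 2 lay above the highest WT value and the other groups overlapped WT, with no call (differences of 0.09, -0.13 and 0.30, adjusted p = 0.541, 0.515 and 0.273). All 4 srKO values lay below all 4 lrKO values, a difference of -0.43 (adjusted p = 0.0328) that was lost when any of 5 single arrays was left out (srKO replicate 2 or any lrKO array, adjusted p from 0.0563 to 0.119) and when all 8 groups shared the estimate of spread (adjusted p = 0.163). At 2 months the same contrast was -0.89 (adjusted p = 0.00609). The srKO change from WT differed between ages by -0.62 (adjusted p = 0.0499), a value at the threshold that many alternatives moved past it.

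Rhox8 (chrX:37874780-37890766), a homeobox gene of the same X-linked cluster as Rhox5 that is also expressed in Sertoli cells, went the other way. At 2 months it read 8.77, 9.64 and 9.29 in prKO testes. The arrays labelled srKO read 8.85, 9.10, 8.99 and 9.12, and those labelled lrKO 8.68, 8.85, 8.63 and 8.70. The 8 WT values ran from 8.48 over a median of 8.60 to 8.80. All 4 srKO values and 2 of 3 prKO values exceeded every WT value, and the exception was prKO replicate 1. Rhox8 was 1.53-fold higher in prKO testes (0.61, SE 0.12, adjusted p = 3.85e-04) and 1.31-fold higher in the arrays labelled srKO (0.39, SE 0.11, adjusted p = 0.0121). The lrKO difference was 0.09, with a 95% interval from -0.14 to 0.32. With only WT replicates 1 to 4 or 5 to 8 the srKO difference was 0.40 and 0.39, with adjusted p = 0.0509 and 0.0654.

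At 2 weeks the level of Rhox8 was 10.38 ± 0.11 in prKO testes, 10.66 ± 0.23 in srKO testes and 10.44 ± 0.06 in the arrays labelled lrKO, against 10.36 ± 0.10 in WT testes (SD, n = 4, 4, 4 and 8). The srKO values were 10.72, 10.70, 10.87 and 10.33, of which 3 exceeded the highest WT value of 10.52. The difference of 0.29 was not called (adjusted p = 0.108), and without srKO replicate 4 it was 0.40 (adjusted p = 0.0127). In prKO testes the change from WT was 0.59 larger at 2 months than at 2 weeks (interaction, adjusted p = 0.00205).

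Drd4 (chr7:141291974-141296464) encodes the dopamine D4 receptor, which couples to an inhibitory G protein that lowers cAMP. At 2 months it read 6.82, 7.56 and 7.52 in prKO testes. The arrays labelled srKO read 7.04, 6.97, 7.42 and 7.33, and those labelled lrKO 6.57, 6.52, 6.29 and 6.53. In WT testes the values ran from 6.20 over a median of 6.51 to 6.73. Every prKO and srKO value exceeded every WT value, and the lrKO values lay within the WT range. Drd4 was 1.77-fold higher in prKO testes (0.82, SE 0.14, adjusted p = 7.06e-05) and 1.64-fold higher in the arrays labelled srKO (0.72, SE 0.13, adjusted p = 2.62e-04). The lrKO difference was 0.00, with a 95% interval from -0.26 to 0.27, and srKO exceeded lrKO by 0.71 (adjusted p = 0.00107).

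Drd4 was also the member that separated prKO from WT most clearly at 2 weeks. It read 9.19, 8.88, 8.92 and 8.64 in prKO testes, 8.98, 8.86, 8.50 and 8.66 in srKO testes and 8.39, 8.56, 8.58 and 8.13 in the arrays labelled lrKO. WT testes ran from 7.58 over a median of 8.21 to 8.61. All 4 prKO values and 3 of 4 srKO values exceeded every WT value. The prKO difference was 0.77 (SE 0.15, adjusted p = 0.00208). The srKO difference of 0.60 had an adjusted p of 0.0625, and 7 of its alternatives passed the threshold, among them WT replicates 1 to 4 alone (0.62, adjusted p = 0.0204). Neither line's change from WT differed between ages by the interaction (0.06 and 0.11, adjusted p = 0.878 and 0.777, with 95% intervals from -0.38 to 0.49 and -0.30 to 0.52).

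**Figure D2:**
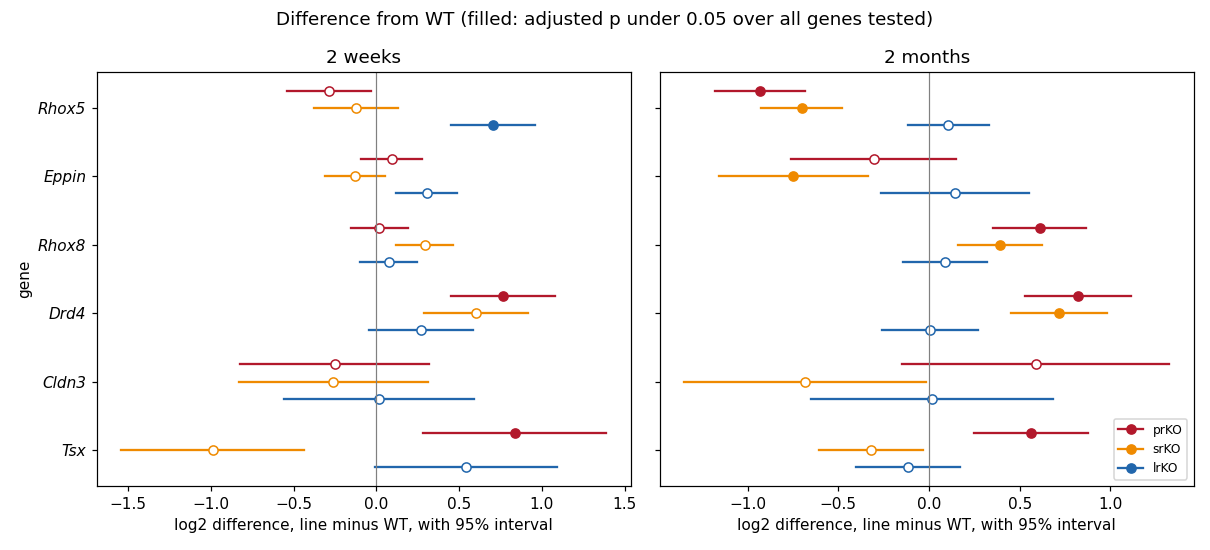
Log2 difference from WT (horizontal axis) with its 95% interval for the 6 genes (vertical axis), in prKO, srKO and lrKO arrays at 2 weeks (left) and 2 months (right), with filled points for adjusted p under 0.05 over all genes tested. At 2 months Rhox5 lies at -0.93 in prKO and -0.70 in srKO arrays and Drd4 at 0.82 and 0.72, while every lrKO interval includes 0.

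Cldn3 (chr5:134986214-134987476) encodes a tight junction claudin found in the blood-testis barrier and in many epithelia. At 2 months the arrays labelled srKO read 6.42, 5.98, 5.99 and 6.09, and those labelled lrKO 6.83, 6.73, 6.87 and 6.84. The 8 WT values ran from 6.49 over a median of 6.72 to 7.33. All 4 srKO values lay below every WT value, yet the difference of -0.68 had an adjusted p of 0.128, in a fit whose spread includes a single prKO value far from the rest. In prKO testes Cldn3 read 9.12, 6.57 and 6.48, and the value of 9.12 is replicate 1. Without that array the srKO difference was again -0.68 with an adjusted p of 3.26e-04, and the prKO difference turned from 0.59 (adjusted p = 0.181) to -0.28 (adjusted p = 0.172). Without all arrays high in Adam7 the srKO difference was -0.74 (adjusted p = 8.18e-05). The called difference of 1.27 between prKO and srKO arrays (adjusted p = 0.0246) fell to 0.41 without prKO replicate 1 (adjusted p = 0.0912), and it was also lost without srKO replicate 3 (1.23, adjusted p = 0.0569).

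A pair of arrays thus holds the extreme values of Cldn3, and Cldn8, another claudin, was high in both. It read 8.20 in prKO replicate 1 at 2 months against 4.03 and 4.17 in the other 2 prKO arrays. In WT replicate 4 at 2 weeks Cldn3 read 8.08 against 5.95 to 6.53 in the other 7 WT arrays, and Cldn8 read 7.37 against 4.10 to 4.98. Adam7 was 5.21 in that WT array, within the range of the others, whereas Gpx5, another epididymal gene, read 5.42 against 3.76 to 4.13. Gpx5 was not high in prKO replicate 1 (3.97, against 3.94 and 3.98). The summed level of the 8 epididymis markers was 39.73 in WT replicate 4, against 36.51 to 40.14 in the other 7, and 45.00 in prKO replicate 1, against 37.38 and 37.66 in the other 2. Without Adam7 the other 7 markers summed to 33.30 in prKO replicate 1, against 32.90 and 33.41, so Adam7 alone set the sum of that array apart. Lcn5 (6.47, against 6.21 and 6.28) and Ros1 (5.42, against 4.86 and 4.95) were also highest there, while Lcn8 and Cst11 were lowest. Cldn8 and Gpx5 were chosen after their values were seen, apart from the place of Cldn8 among the genes most like Cldn3. The part of these markers in the level of Cldn3 was not tested.

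At 2 weeks Cldn3 averaged 6.27 ± 0.46 in prKO testes, 6.26 ± 0.12 in srKO testes and 6.54 ± 0.17 in the arrays labelled lrKO, against 6.52 ± 0.66 in WT testes (SD, n = 4, 4, 4 and 8). No line differed from WT (adjusted p = 0.598, 0.716 and 0.991). Without WT replicate 4 the differences were -0.03, -0.04 and 0.24 (adjusted p = 0.918, 0.935 and 0.702).

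**Figure D3:**
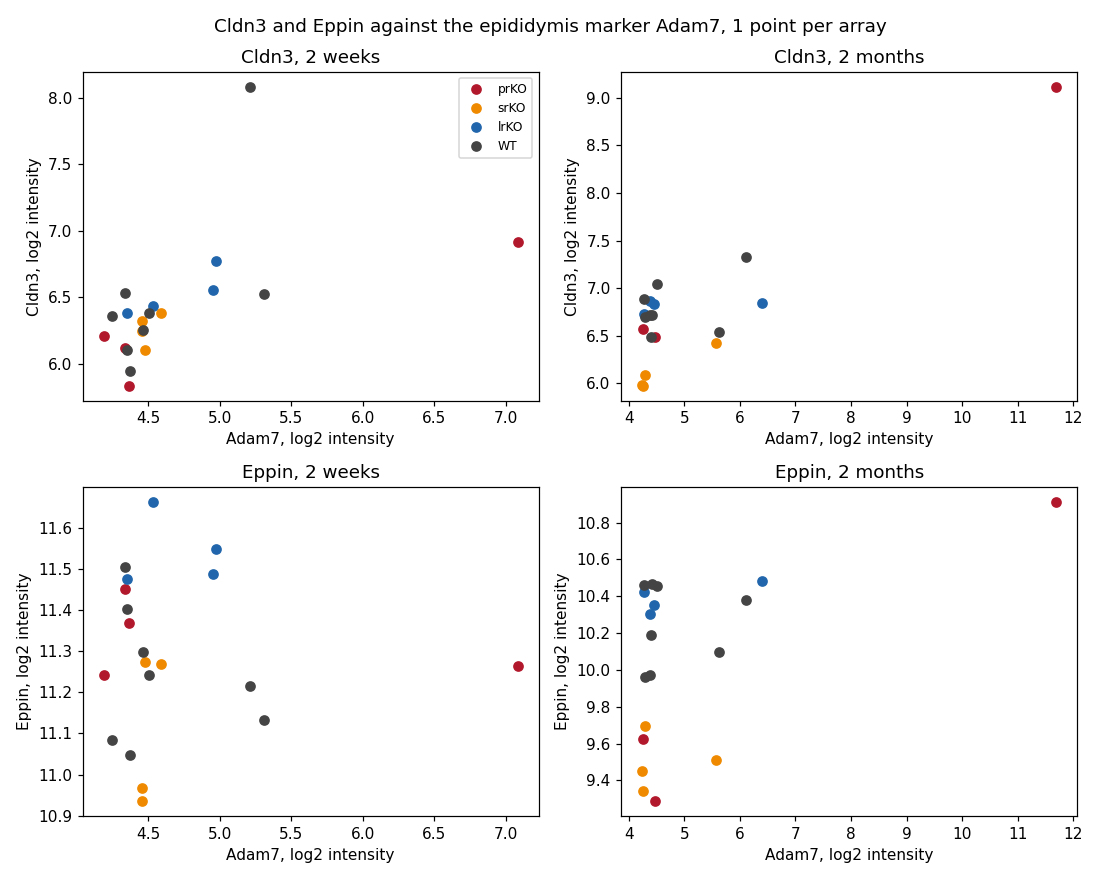
Log2 intensity of Cldn3 (top) and Eppin (bottom) on the vertical axes against the epididymis marker Adam7 on the horizontal axes, at 2 weeks (left) and 2 months (right), with 1 point per array coloured by genotype. One prKO array at 2 months stands alone with Adam7 at 11.70, Cldn3 at 9.12 and Eppin at 10.91, and the WT array with Cldn3 at 8.08 at 2 weeks has Adam7 at 5.21.

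Tsx (chrX:103409012-103424588), a testis-specific X-linked gene beside the X inactivation centre that is reported from Sertoli cells and germ cells, separated the prKO and srKO lines. At 2 weeks it read 11.38, 11.43, 11.14 and 11.27 in prKO testes and 9.64, 9.42, 8.85 and 10.01 in srKO testes. The arrays labelled lrKO read 10.99, 10.99, 10.98 and 11.07. WT testes read 10.54, 11.30, 11.41 and 10.16 in replicates 1 to 4 and 9.48, 10.13, 10.35 and 10.36 in replicates 5 to 8. Every prKO value exceeded every srKO value, and WT spanned most of the distance between them. The prKO over srKO difference was 1.83 (3.54-fold, SE 0.31, adjusted p = 6.65e-04), and the srKO over lrKO difference was -1.53 (adjusted p = 0.0142). The second was lost without srKO replicate 3 (-1.32, adjusted p = 0.0605) or lrKO replicate 4 (-1.51, adjusted p = 0.0525).

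Against WT the call of Tsx depended on the WT arrays used and, in prKO testes at 2 weeks, on other choices too. There it was lost in 22 of 33 alternatives. Among them were leaving out any single prKO or lrKO array and a fit of only the groups compared (adjusted p = 0.108). In prKO testes at 2 weeks the difference was 0.84 (adjusted p = 0.0483) with all 8 WT arrays, 0.45 (adjusted p = 0.414) with replicates 1 to 4 and 1.22 (adjusted p = 4.64e-04) with replicates 5 to 8. In srKO testes it was -0.99 (adjusted p = 0.0889), -1.38 (adjusted p = 0.00644) and -0.60 (adjusted p = 0.141) with the same 3 sets. The direction was therefore the same with each set, higher in prKO and lower in srKO.

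At 2 months Tsx read 10.60, 11.21 and 11.12 in prKO testes. The arrays labelled srKO read 10.20, 10.07, 10.001 and 10.10, and those labelled lrKO 10.25, 10.28, 10.30 and 10.35. WT testes read 10.62 to 10.72 in replicates 1 to 4 and 10.05 to 10.19 in replicates 5 to 8. These WT subsets did not overlap, and all 4 lrKO values fell between them. The prKO difference from WT was 0.56 (adjusted p = 0.00448), with 0.29 (adjusted p = 0.0604) against replicates 1 to 4 and 0.84 (adjusted p = 4.50e-05) against replicates 5 to 8. The srKO difference was -0.32 (adjusted p = 0.0959), with -0.59 (adjusted p = 0.001) and -0.05 (adjusted p = 0.836) against the same subsets. The difference between prKO and srKO arrays, in which no WT array takes part, was 0.88 (adjusted p = 0.00137), with all 3 prKO values above all 4 srKO values. WT replicates 1 to 4 also had less Prkar1a than replicates 5 to 8, by 0.20 at 2 weeks and 0.24 at 2 months. What separates the WT subsets was not tested.

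Between the lines, 1 member was called in prKO against srKO at 2 weeks (Tsx), where 11.8% of all genes were called, and 2 at 2 months (Cldn3 and Tsx), against 25.6% of genes. In srKO against lrKO arrays 3 members were called lower at 2 weeks (Rhox5, Eppin and Tsx), against 1.95% of genes, and 3 at 2 months (Rhox5 and Eppin lower, Drd4 higher), against 26.7%. Between ages, 2 members had a prKO change that differed (Rhox5 and Rhox8), against 28.2% of genes, 2 a srKO change that differed (Rhox5 and Eppin), against 17.2%, and none a lrKO change that differed, against 0.100%, although Rhox5 (-0.60) and Tsx (-0.66) had an unadjusted p under 0.05 there.

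In WT testes the members differed in how they stood at 2 months relative to 2 weeks, a comparison in which 81.6% of all genes were called. Rhox8 was 3.34-fold lower at 2 months (-1.74, adjusted p = 8.15e-21), Drd4 3.18-fold lower (-1.67, adjusted p = 1.65e-15) and Eppin 1.99-fold lower (-0.99, adjusted p = 9.41e-09), each with all 8 values at 2 months below all 8 at 2 weeks. Rhox5 (-0.19, 95% interval -0.39 to 0.00), Tsx (-0.05, -0.42 to 0.31) and Cldn3 (0.28, -0.24 to 0.79) were not called. Without WT replicate 4 at 2 weeks the Cldn3 difference was 0.50 (adjusted p = 0.0381). Over the same span, 19 of the 20 Sertoli cell markers were lower and 1 higher, with a median of -1.50, and 8 of 9 spermatid markers were higher, with a median of 6.22. The median over all genes was -0.24.

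The somatic and germ cell markers moved with genotype at 2 months too. In prKO testes 12 of 20 Sertoli cell markers were higher and 1 lower (median 0.54), in the arrays labelled srKO 7 were higher and 1 lower (median 0.24), and in those labelled lrKO none was higher and 1 lower. Over all genes tested, 48.4%, 25.4% and 0.184% were called in these comparisons, to which the spermatid counts below also belong. Kitl, the ligand of the germ cell receptor Kit, and Inha, the inhibin alpha subunit, led the prKO list (1.60 and 1.39), while Fshr, the FSH receptor, was the lower one both in prKO testes (-0.68, adjusted p = 3.68e-04) and in the arrays labelled srKO (-1.09, adjusted p = 2.36e-06). Of 9 spermatid markers, 8 were lower and 1 higher in prKO testes (median -1.01) and 7 were lower in srKO arrays (median -0.91). Markers of other cell types moved as well. The mean of 6 macrophage markers per array was 7.66 to 8.34 in prKO testes and 7.31 to 7.91 in srKO arrays, against 6.70 to 6.91 in WT, and that of 6 endothelial markers 7.10 to 8.12 and 6.69 to 7.16, against 6.16 to 6.42. For 8 Leydig cell markers it was 9.17 to 9.74 and 9.12 to 9.59, against 8.64 to 9.09, and for 5 adrenal cortex markers 6.27 to 7.37 and 5.38 to 5.73, against 4.98 to 5.32. None of these ranges in prKO and srKO arrays overlapped WT. For 9 meiotic prophase markers the mean was 9.24 to 9.65 in prKO testes, below every WT array (9.72 to 9.92). In srKO arrays it was 9.87 to 10.09, which overlapped WT. In the arrays labelled lrKO the adrenal cortex mean was 5.43 to 5.60, also above every WT array, whereas the macrophage, endothelial and Leydig ranges overlapped WT. Hsd3b6, a listed Leydig cell marker, was lower in prKO and srKO arrays, as given below. The higher Rhox8 and Drd4 and the lower Rhox5 and Eppin thus stood beside shifts in marker levels of several cell types, whose part in these results was not tested. At 2 weeks the Leydig mean was 9.76 to 10.16 in prKO testes, against 8.13 to 9.01 in WT. The adrenal cortex mean was 6.22 to 6.83, against 4.90 to 5.18, while the macrophage and endothelial ranges overlapped WT. Their part in the levels of the members at 2 weeks was not tested either.

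Subtracting the mean of the 20 Sertoli cell markers from each array describes the members within that signal. Several of these markers, among them Kitl, Inha and Fshr, themselves changed with genotype at 2 months. The relative values carry that change and are not levels per Sertoli cell. Rhox5 relative to the markers was -2.27 ± 0.29 in prKO testes (SD, n = 3), -1.74 ± 0.11 in the arrays labelled srKO and -0.73 ± 0.04 in those labelled lrKO (SD, n = 4 each), against -0.82 ± 0.10 in WT testes at 2 months (SD, n = 8). Relative Eppin was 1.25 ± 0.16 in srKO arrays against 2.22 ± 0.16 in WT, and in prKO testes it was 2.65, 0.93 and 0.59, with replicate 1 above every WT value. Relative Drd4 was -1.25 ± 0.17 in prKO testes and -1.05 ± 0.25 in srKO arrays, against -1.55 ± 0.17 in WT, and relative Rhox8 was 0.68 ± 0.22 and 0.77 ± 0.10, against 0.59 ± 0.12. On this scale the distance of Rhox5 from WT was -1.45 in prKO and -0.92 in srKO arrays, that of Drd4 was 0.30 and 0.50, and that of Rhox8 was 0.09 and 0.18. The distance of Rhox5 was therefore larger on the relative scale and that of Rhox8 and Drd4 smaller, as the marker means were themselves higher. For Tsx the relative distance was 0.04 in prKO and -0.54 in srKO arrays, against 0.56 and -0.32 without the subtraction. For Cldn3 it was 0.07, with prKO replicate 1 included, and -0.90. In WT testes relative Rhox5 was -0.82 at 2 months and -1.96 ± 0.24 at 2 weeks.

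**Figure D4:**
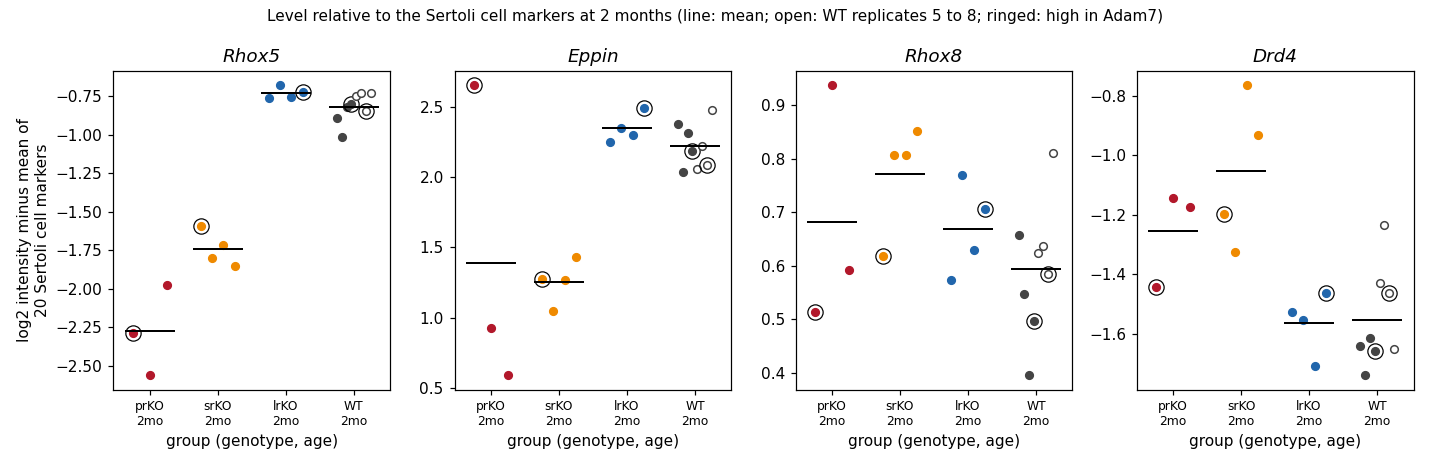
Log2 intensity of Rhox5, Eppin, Rhox8 and Drd4 minus the mean of 20 Sertoli cell markers in the same array (vertical axes), by genotype at 2 months (horizontal axes), with 1 point per array, a line at each group mean, open points for WT replicates 5 to 8 and rings around arrays high in Adam7. Rhox5 lies between -2.56 and -1.59 in the prKO and srKO arrays and between -1.01 and -0.68 in the lrKO and WT arrays.

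Of the listed genes of androgen synthesis and its upstream receptor, 6 were tested, as transcripts and not as hormone. In prKO testes at 2 weeks 4 were higher and none lower (median 1.76), led by Star, which brings cholesterol into mitochondria (2.98), Cyp11a1, which cleaves its side chain (2.93), and Cyp17a1, which makes androgen precursors (1.86). At 2 months 3 were higher and 1 lower in prKO testes and likewise in the arrays labelled srKO, where Hsd3b6 was the lower one in both (-3.15 and -1.17). In the arrays labelled lrKO at 2 months, none was higher and 2 were lower: Hsd17b3, which makes testosterone (-1.36, adjusted p = 0.00166), and Hsd3b6 (-1.59, adjusted p = 0.0124). Over all genes tested, 10.5% were called in prKO testes at 2 weeks. At 2 months 48.4% were called in prKO testes, 25.4% in srKO arrays and 0.184% in lrKO arrays. The part of these genes in the levels of the members was not tested.

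A list of chaperones and coregulators of steroid hormone receptors and of 5-alpha reductases had 8 tested genes. At 2 months 4 of them (50%, against 48.4% of all genes called) were higher in prKO testes, led by Fkbp5, an androgen- and glucocorticoid-responsive co-chaperone (0.84, adjusted p = 1.33e-05), and 3 in the arrays labelled srKO (37.5%, against 25.4%), all under 0.20. None was lower in either. Fkbp5 was also higher in prKO testes at 2 weeks (0.62, adjusted p = 2.16e-05).

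Among 5 other genes named in work on androgen action in Sertoli cells, 3 were higher and 1 lower at 2 months in prKO testes and again in the arrays labelled srKO, where 48.4% and 25.4% of all genes were called. Corin, a serine protease, averaged 8.26 ± 0.30 in prKO testes and 7.81 ± 0.09 in srKO arrays, against 9.06 ± 0.13 in WT testes (SD, n = 3, 4 and 8), a difference of -0.80 (adjusted p = 8.60e-06) and -1.25 (adjusted p = 9.65e-08). Tubb3, a beta tubulin, averaged 8.25 ± 0.50 in prKO testes and 8.19 ± 0.26 in srKO arrays, against 7.35 ± 0.22 in WT testes, a difference of 0.90 (adjusted p = 2.90e-04) and 0.84 (adjusted p = 4.95e-04). None of the 5 was called in lrKO arrays at either age.

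Family members and neighbours were counted in the same way. Of 5 other Rhox cluster genes tested, 1 was lower in prKO testes at 2 months (Rhox11, -0.68, adjusted p = 0.00340) and 1 in the arrays labelled srKO (Rhox13, -0.32, adjusted p = 0.0358). Among 14 tested claudins and partners, 8 were higher and none lower in prKO testes at 2 months and 5 were higher in srKO arrays (57.1% and 35.7%, against 48.4% and 25.4% of all genes), led by Cldn11, the main Sertoli claudin (0.99 and 0.77), whereas Cldn3 was not called in either. None of the 3 other dopamine receptors tested was called in a line at either age. Of 5 genes beside Tsx, 1, Rlim, was called at 2 months in prKO testes (0.36, adjusted p = 0.00884) and none in srKO arrays.

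Genes whose pattern most resembled each member were ranked by Pearson correlation over the 39 arrays after subtracting the WT mean of the same age, as a description of arrays that share groups and tissue. Rhox5 was closest to Frmpd1 (r = 0.86), Gtpbp2 (0.83) and Dgkh (0.81). Rhox8 was closest to Got1 (0.87), Scrn1 (0.86) and Hadh (0.85), Drd4 to Sod3 (0.86), Wfdc1 (0.86) and Gpr55 (0.85), and Eppin to Gramd2 (0.81), Ank (0.78) and Cpne5 (0.77). Cldn3 was closest to Myo3b (0.90), Ank3 (0.90) and Cldn8 (0.88), and Tsx to St8sia2 (0.82), Sirt2 (0.80) and Gpr180 (0.79). Without the 6 arrays high in Adam7 the value for Cldn3 and Cldn8 was 0.75. Among the members, Rhox5 and Eppin correlated at 0.54 over 39 arrays and at 0.78 over the 33 arrays without high Adam7, Rhox8 and Drd4 at 0.58 and 0.59, and Rhox5 and Rhox8 at -0.48 and -0.53.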

How the data were processed

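Whole-testis RNA of 39 mice was hybridised to Affymetrix arrays. The deposited log2 intensities had been normalised with RMA by the authors, per the submitters' processing notes, and no further normalisation was applied. Of 41345 probe sets, 23521 carried 1 gene symbol, 1814 several and 16010 none in the platform annotation. Where a gene had several, the brightest on average was kept, giving 22180 genes. Groups came from the sample titles. limma 3.58.1 in R 4.3.3 fitted group means, with 1 fit per age for comparisons within an age and 1 fit of all 8 groups for comparisons between ages, with two-sided tests and Benjamini-Hochberg adjustment. On simulated arrays for prKO against WT at 2 weeks, 78 of 100 genes changed by 0.5 log2 units and 98 of 100 changed by 1 were recovered. There were 12 calls among the unchanged of 19007 genes. Noise was drawn independently for each gene, with no WT subsets or shared shifts, so these figures do not give the error of the real comparison. That comparison called 723 genes with WT replicates 1 to 4 and 4802 with replicates 5 to 8. Precision is limited by how many arrays each group has. The members and gene lists were chosen with earlier results of these data known, and the scale relative to Sertoli cell markers was added after the values were seen. Members and Prkar1a are named in every comparison, and from each other list at most the 3 called genes with the largest change. Genes of claudin and WAP lists named for single arrays are exceptions. Alternatives were other filters, probe set averaging, renormalisation, median centring, array weights, robust variance priors, other sets of arrays in the fit, a replicate block, WT subsets, arrays high in Adam7 and each array left out. A gene whose probe set lists several symbols or none was not analysed here.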

Additional observations from a re-analysis of the deposited data

Results flagged for a closer look

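A pair of single arrays was far from the others of their group, by Dixon's test, which flags about 1 in 20 groups by chance. The test was run on 42 combinations of gene and group, so 2 is about the number chance gives. Cldn3 read 8.08 in WT replicate 4 at 2 weeks, where the next highest WT value was 6.53 and the lowest 5.95. Tsx read 11.07 in lrKO replicate 4 at 2 weeks, where the next was 10.99 and the lowest 10.98, so the gap there is small in size. The 42 combinations do not cover all 6 genes in all 8 groups. Cldn3 in prKO replicate 1 at 2 months (9.12, against 6.57 and 6.48) is not among the flagged values, which does not mean that it lay close to the others.

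Differences between lines passed their own test for 9 results. Tsx was higher in prKO than in srKO arrays by 1.83 at 2 weeks and by 0.88 at 2 months, and Cldn3 by 1.27 at 2 months, a value that rests on prKO replicate 1. Between srKO and lrKO arrays the differences at 2 weeks were -0.83 for Rhox5, -0.43 for Eppin and -1.53 for Tsx, and at 2 months -0.81 for Rhox5, -0.89 for Eppin and 0.71 for Drd4.

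Differences of a line's change from WT between the ages passed their test for 4 results, Rhox5 (-0.65) and Rhox8 (0.59) in prKO testes and Rhox5 (-0.58) and Eppin (-0.62) in srKO testes.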

How the results depend on the processing

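Over the 6 genes, 27 differences were called and 57 were not. In 1004 alternatives of the called ones, 919 kept call and direction, 85 lost the call and 0 turned. In 2170 alternatives of the uncalled ones, 2029 stayed as they were, 61 became called and 80 turned without a call. The cause of these moves was not tested, beyond the arrays left out. Same-numbered arrays deviated together in some pairs and apart in others (r from -0.62 to 0.44 over 45 pairs), without a steady sign. At 2 weeks r was 0.34 for prKO and WT replicate 1, and -0.62 for srKO and WT replicate 4. The replicate blocks lie within an age, so that fit cannot estimate the difference between ages in WT. Its values there, such as -0.67 for Eppin and 0.25 for Tsx, depend on the arrays taken as baseline. The counts above include them. Over array weights, the replicate block, only the groups compared, WT subsets and centring, the number of all genes called ranged at 2 weeks from 598 to 4802 (prKO against WT, main value 1994), 39 to 2234 (srKO against WT, 166), 3 to 942 (lrKO against WT, 19), 2331 to 3650 (prKO against srKO, 2234) and 311 to 2762 (srKO against lrKO, 370). At 2 months it ranged from 22 to 145 (lrKO against WT, 35) and 1083 to 5480 (prKO against srKO, 4860), and for changes with age from 2585 to 4975 (srKO, 3278) and 12 to 87 (lrKO, 19).

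The number of members called in prKO against WT at 2 weeks was 1 in place of 2 with no filter, with robust variance priors, with only the groups compared, with the replicate block, with WT replicates 1 to 4 and without arrays high in Adam7. In srKO against WT at 2 weeks it was 1 with centring, 3 with array weights, and 2 with all 8 groups, the replicate block or WT replicates 1 to 4, in place of 0. In lrKO against WT at 2 weeks it was 0 with only the groups compared or WT replicates 5 to 8. In prKO against srKO it was 2 at 2 weeks with centring, array weights or robust priors, in place of 1, and 1 at 2 months with only the groups compared, in place of 2. In srKO against WT at 2 months it was 2 with WT replicates 5 to 8, in place of 4. In srKO against lrKO at 2 months it was 5 with array weights, only the groups compared or no arrays high in Adam7, in place of 3. Between ages in WT it was 5 with array weights, in place of 3. For the srKO change with age it was 1 with no filter, probe set averaging, quantile normalisation, robust priors, the replicate block or WT replicates 1 to 4, and 0 with WT replicates 5 to 8, in place of 2. Leaving out single arrays gave 1 to 2 (prKO against WT), 0 to 2 (srKO against WT), 0 to 1 (lrKO against WT), 1 to 2 (prKO against srKO) and 1 to 4 (srKO against lrKO) at 2 weeks, 1 to 4 (prKO against srKO) and 3 to 5 (srKO against lrKO) at 2 months, and 1 to 3 for the srKO change with age.

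Uncalled differences turned in the following cases. At 2 weeks, Rhox8 in prKO was -0.015 with centring, -0.053 with the replicate block or WT replicates 1 to 4, -0.011 without arrays high in Adam7 and -0.011 to 0.069 without single arrays. With WT replicates 5 to 8, Cldn3 was 0.071 in prKO and 0.064 in srKO. Cldn3 in lrKO was -0.31 with the replicate block or WT replicates 1 to 4 and -0.068 to 0.24 without single arrays. Between prKO and srKO, Cldn3 was -0.044 with quantile normalisation, -0.060 with centring, -0.004 with array weights, -0.21 without arrays high in Adam7 and -0.21 to 0.15 without single arrays. Rhox5 in srKO ran from -0.20 to 0.007 without single arrays. At 2 months, Cldn3 in prKO was -0.23 without arrays high in Adam7 and -0.28 to 1.04 without single arrays, and Eppin -0.79 to 0.021. In lrKO, Drd4 was -0.018 with array weights, -0.043 with WT replicates 5 to 8 and -0.036 to 0.066 without single arrays. Cldn3 there was -0.18 with the replicate block or WT replicates 1 to 4 and -0.030 to 0.090 without single arrays, and Tsx 0.16 with WT replicates 5 to 8. Between prKO and srKO, Eppin was -0.039 without arrays high in Adam7 and -0.042 to 0.77 without single arrays, and Drd4 -0.023 to 0.35. Between ages in WT, Tsx was 0.035 with centring, 0.059 with WT replicates 5 to 8 and -0.20 to 0.081 without single arrays. For the prKO change with age, Drd4 was -0.014 with quantile normalisation, -0.027 with centring and -0.072 to 0.30 without single arrays, and Cldn3 -0.022 to 1.295. For the srKO change, Rhox8 ran from -0.007 to 0.17. For the lrKO change, Cldn3 was 0.004 with quantile normalisation, 0.011 with centring, 0.13 with the replicate block or WT replicates 1 to 4, 0.035 without arrays high in Adam7 and -0.22 to 0.082 without single arrays. Rhox8 was -0.063 with WT replicates 5 to 8 and -0.029 to 0.042 without single arrays.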
